A study of Mus musculus with 3 samples.

Results

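The array carries probes that are named by a stretch of the genome and a strand in place of a gene, and the longer of these stretches, those of 5 kb or more on the autosomes, are described here. Their probes were chosen by name, such as chr9:14460976-14488051 with the ending F or R, with 1 window on chromosome 16 left out. Of 3540 regions designed on the array, 1942 met this rule, with 11852 probes. Each probe had 6 readings, from both dyes on 3 arrays, and was kept when 3 or more of them carried the scanner software's mark for a signal well above background. This left 4524 probes in 1452 regions, of 28961 probes measured on the array in all. The kept regions ran from 5025 to 533971 bp, with a median of 18645 bp. The file headers place the design on mouse build mm9, and nothing in the files states which RNA strand an F or an R probe reads, so the letters are used as they stand. No mm9 gene annotation or genome was used here, so whether the regions are intergenic and noncoding, which genes lie near them and the sequences of the probes were not analysed here.

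The RNA came from bone marrow-derived macrophages of C57BL/6J mice, labelled WT, grown with L929-conditioned medium, a source of the growth factor CSF-1, and kept in 0.1% serum. One group was left untreated and the other received adiponectin, a hormone secreted by fat cells, at 12 µg/ml for 18 h. The extraction text of the labels gives mg/ml, and the treatment text and sample labels give µg/ml. Treated and untreated RNA were hybridised together, a pair to an array, on 3 arrays that the labels call biological replicates. Replicates 1 and 3 carried the adiponectin RNA in Cy3, and replicate 2 carried it in Cy5.

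Long intergenic noncoding RNAs are transcripts that lie between protein-coding genes and are not translated. Many were first located through chromatin marks of active promoters and transcribed gene bodies, so that the coding strand and the exons of a located region were often unknown, and probes to both strands along the region serve to find them. In macrophages, a number of such RNAs are known to be induced by inflammatory signals, and some act on inflammatory genes. Bulk RNA was measured, so fewer cells of a type and less RNA per cell cannot be told apart.

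All 8 macrophage markers with a probe (among them Csf1r, Adgre1, Itgam, Lyz2 and Mertk) were well above background on all 3 untreated readings, and 7 of them were lower and 1 (Cd14) higher after treatment. Markers of other cells were present in part. Of 5 T cell markers with a probe, 3 were measured, of which Cd3e (0.96) and Lck (0.89) were higher on the log2 scale, and Cd3g and Cd8a were well above background in no reading. Of 5 B cell markers 2 were measured, with Cd79b lower (-1.69), and Ms4a1 was above background in no reading. The natural killer cell list had 2 of 4 measured, the mast cell and basophil list 1 of 4, the dendritic cell list 3 of 4, the fibroblast list 2 of 5, the erythroid list 0 of 3 and the endothelial list 3 of 4. All 4 neutrophil markers with a probe were measured, with Ngp (-0.71), Ltf (-2.08) and Mpo (-1.32) lower and Camp (1.27) higher. The part of these markers in the region results was not tested. Of the designed region probes, 31.9%, 32.5% and 28.0% were well above background in the treated RNA of replicates 1, 2 and 3, and 41.7%, 40.6% and 41.1% in the untreated RNA. The same imbalance held over all probes of the array (46.9%, 47.5% and 43.9% against 54.3%, 53.4% and 53.9%).

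The first comparison asks how many long regions changed with adiponectin and in which direction. Of the 4524 region probes, 1193 were called higher (26.4%) and 938 lower (20.7%), by limma with Benjamini-Hochberg adjustment over all 28961 probes at an adjusted p under 0.05. Over all probes tested, 25.9% were called higher and 35.9% lower. The share called higher was thus near that of the array as a whole, and the share called lower was below it. The median log2 change of the region probes was 0.05, with the middle 50% between -0.16 and 0.24, against a median of -0.04 over all probes. Changes of 2-fold or more were less common among the region probes, which are dimmer, than over all probes. They amounted to 180 higher (3.98%) and 105 lower (2.32%), where 5.93% and 7.91% of all probes reached that size. In the 2262 brighter region probes the shares were 7.87% and 4.64%, and in the 2262 dimmer ones 0.0884% and 0%. Probes were not matched for brightness here, and brightness includes the treated signal, so a rise itself makes a probe brighter. The region probes spanned log2 changes of -1.93 to 4.21, and 3 rose by 8-fold or more. Of the 2131 called region probes, 2122 had the same sign on all 3 arrays. Where arrays were centred on their median and not fitted by loess, 0 region probes passed in limma, 726 had an unadjusted p under 0.05, and the medians were -0.23 for the region probes and -0.66 for all probes.

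**Figure D1:**
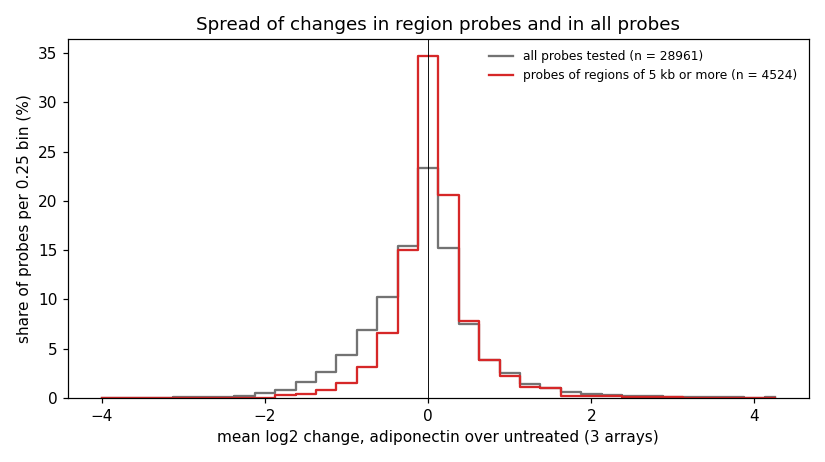
The share of probes (vertical axis, % per bin of 0.25) by mean log2 change of adiponectin-treated over untreated macrophages (horizontal axis), for the 4524 region probes and for all 28961 probes tested. The region probes, most of them dim, gather more closely around 0, and their left side is thinner than that of all probes.

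Counted by region in place of probe, 557 of the 1452 regions (38.4%) had at least 1 probe called higher and none lower, 278 (19.1%) had at least 1 lower and none higher, 101 (6.96%) had both and 516 (35.5%) had none called. The counts are of regions that share sequence in part: 475 regions (32.7%) overlapped another kept region.

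Length went with direction in part. Probes of regions of 5 to 10 kb were called higher in 24.0% and lower in 27.8% of 1013. In regions of 10 to 20 kb the shares were 24.2% and 21.1% of 1384, in regions of 20 to 50 kb 28.9% and 16.7% of 1276, and in regions of 50 kb and up 28.9% and 17.7% of 851. The share called lower was thus highest in the shortest class. Autosomal regions under 5 kb, with 1281 kept probes, had 25.2% higher and 20.9% lower and a median of 0.04, close to the values of the long regions. At the limit of 5 kb, the nearest kept regions above it were chr8:24327427-24332452 (5025 bp, 0.04 for its F probe) and chr12:116850878-116855932 (5054 bp, -0.02, R). The nearest below it were chr16:30200995-30205965 (4970 bp, 1.01, R) and chr19:46413742-46418617 (4875 bp, -0.37, F).

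Most region probes were dim, and the calls rose with brightness. The median of their mean log2 intensity was 6.79, against 8.50 for probes that are not regions. In region probes under 6.5 in mean log2 intensity, 8.97% of 1471 were called higher and 12.9% lower. Between 8 and 10 the shares were 50% and 27.8% of 608, and at 10 and up 56.2% and 29.7% of 306. Probes that are not regions had 28.5% higher and 51.1% lower of 5490 between 8 and 10, and 31.2% and 38.8% of 7566 at 10 and up. In these 2 bright bands the region probes had medians of 0.25 and 0.34 and the other probes medians of -0.27 and -0.06. The counts and medians of the bright region probes and of other bright probes were therefore unlike, and no test was run. Brightness was the mean of the treated and untreated signals, so a rise moves a probe to a brighter band and a fall to a dimmer one. Direction within a band was thus in part set by the banding.

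**Figure D2:**
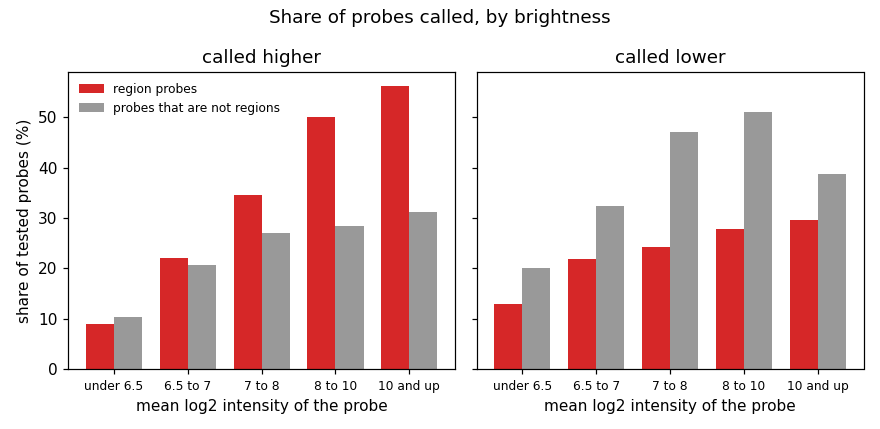
Share of tested probes called higher (left) and lower (right) in limma, by mean log2 intensity of the probe, for region probes and for probes that are not regions. In the 2 brightest bands the red bars of the region probes stand at 50% and 56.2% for higher and at 27.8% and 29.7% for lower, in contrast to the grey bars. The intensity includes the treated signal, so a rise moves a probe to a brighter band.

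The number of readings behind a probe also went with the direction of its call. Of the 2929 region probes well above background in all 6 readings, 1106 were called higher (37.8%) and 529 lower (18.1%), with a median of 0.13. When the fit itself was limited to probes with 6 readings, 1083 of the region probes were higher and 529 lower. Over all 22959 probes of that fit, 7004 were higher and 8248 lower, with a median of 0.00033. The limit to 6 readings leaves out probes that fell to background in treated RNA, so it also acts on direction. The 1595 probes with 3 to 5 readings had 87 higher (5.45%) and 409 lower (25.6%). Among these, 560 were well above background in the 3 untreated readings and in no treated one, and 25 in the 3 treated readings and in no untreated one. Such probes were kept through the group in which they were brighter, so their direction (255 lower and 0 higher among the former, 25 higher and 0 lower among the latter) was in part set by the choice. The lower calls thus rested more on dim probes than the higher calls did. Across the 4524 region probes, the ratios of the arrays correlated at r = 0.897 (replicates 1 and 2), 0.927 (1 and 3) and 0.882 (2 and 3), where probes share their arrays and regions and are not independent. The standard deviation of a probe over the 3 arrays had a median of 0.12 on the log2 scale.

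The largest rises were well outside the spread of the arrays. The highest was a forward probe of chr18:35967933-35986564, an 18631 bp region. Its normalised log2 intensity was 11.94, 11.95 and 12.12 in the treated RNA of replicates 1, 2 and 3 and 7.87, 7.79 and 7.73 in the untreated RNA. The treated values did not overlap the untreated ones, and the probe rose by 4.21 ± 0.088 (moderated SE, n = 3 arrays; limma adjusted p = 7.10e-08), or 18.5-fold. The moderated SE of limma draws the variance of each probe towards that of all probes. The other 2 kept forward probes of this region were at 0.11 and 0.11 and did not pass. The rise therefore stood on 1 probe of 3.

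The next was a reverse probe of chr1:134867906-134885481, at 10.67, 10.71 and 10.58 in treated and 6.96, 7.04 and 6.74 in untreated RNA. It rose by 3.73 ± 0.079 (limma adjusted p = 7.10e-08). This region had 9 kept reverse probes. The other 8 lay between -0.09 and 0.49, and 3 of them passed as higher. On the forward strand, 3 of 4 kept probes passed as higher, with a highest value of 0.38. These 3 were at 0.17, 0.05 and 0.05 on replicate 2 and at 0.30 to 0.66 on replicates 1 and 3. Replicate 2 has the other dye orientation, and the part of the dyes in these probes was not tested. A forward probe of chr3:117935228-118089771 rose by 3.04 ± 0.096, with 3.28, 2.92 and 2.91 on replicates 1, 2 and 3, while the other kept forward probe was at -0.03. In these 3 regions the large change was that of 1 probe, and the other kept probes of the strand were below 0.5.

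Other rises were shared by every kept probe of the strand. The 5 forward probes of chr9:14460976-14488051, all 5 that were designed, rose by 2.96, 2.89, 2.77, 2.74 and 2.31. Their brightest probe gave 11.19, 11.55 and 11.38 in treated and 8.49, 8.33 and 8.40 in untreated RNA, or 7.80-fold. No reverse probe of that region was kept, although 5 were designed. The region thus changed as a block on 1 strand. The 4 reverse probes of chr8:41934312-41945487 rose too, by 2.84, 2.30, 1.09 and 0.43, and its only kept forward probe was at 0.10. A second, overlapping region, chr8:41941084-41947630, had 3 kept reverse probes, all called higher at 0.27 to 0.46. The 3 reverse probes of chr17:32213027-32228368 rose by 2.36, 1.98 and 0.53, and the 4 forward probes of the region that overlaps it, chr17:32213375-32238425, lay between 0.02 and 0.18 with none called.

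The remaining rises among the 10 largest rested on 1 called probe each. The only kept forward probe of chr8:80581177-80621652 was at 2.81, 2.78 and 2.78 on replicates 1, 2 and 3, the closest agreement among the 20 probes named. The only kept forward probe of chr9:56910620-56919495 rose by 2.64 ± 0.094. A region with the same start and an end 172 bp further on had 2 kept forward probes at 0.06 and 0.17, neither of them called. In chr14:33975934-33998694, 1 reverse probe rose by 2.55 ± 0.077 and the other was at -0.13. The larger region around it, chr14:33923944-34003394, had 6 kept reverse probes from -0.81 to 1.53, of which 1 was called higher and 3 lower. In chr10:69669025-69686275, 1 of 5 designed reverse probes was kept and rose by 2.55 ± 0.10.

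The largest falls were smaller than the largest rises after loess, but not with median centring, where the deepest fall (chr14:22267795-22319045) was at -3.11 and the highest rise (chr18:35967933-35986564) at 3.05, and neither passed (limma adjusted p = 0.115 for each). Of the 10 largest falls, all lay between -1.93 and -1.57, and each came from a region strand with at least 2 kept probes. In 6 of the 10, every kept probe was called lower, but 3 of these 6 held probes that were kept through the untreated readings alone, whose direction was in part set by the choice. Among the 10 largest rises, 7 had several kept probes, and in 3 of these every kept probe was called higher. Whether rises and falls differ in this was not tested.

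The deepest fall was in chr14:22267795-22319045, a region of 51250 bp. Its brightest forward probe was at 9.64, 9.56 and 9.41 in treated and 11.51, 11.33 and 11.57 in untreated RNA, with no overlap, a log2 change of -1.93 ± 0.096 (limma adjusted p = 1.47e-06). Of 7 kept forward probes, 5 were called lower (-1.93, -1.79, -1.73, -1.60 and -0.84, the last kept through untreated readings alone), and the other 2 were at 0.16 and 0.20. The 4 kept forward probes of chr6:11996975-12037300 agreed more closely, between -1.80 and -1.71. The mean of these 4 was -1.81, -1.64 and -1.85 on the 3 arrays. All 7 forward probes of chr1:141070245-141076841 were called lower, from -1.58 to -1.27, each with readings in both groups. The 4 kept reverse probes of the region lay between -0.49 and -0.26, but 3 of them were kept through untreated readings alone, so the reverse strand is given as values only.

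The other falls were of like size. The 4 kept forward probes of chr1:95871175-95886625 ranged from -1.70 to -0.29, all called lower, of which the 2 weakest were kept through untreated readings alone, and the 3 reverse probes of chr9:65368908-65377592 from -1.70 to -1.27. A region that overlaps the latter, chr9:65376063-65390480, held reverse probes called in both directions, from -0.79 to 0.77. The forward probe of chr8:48476637-48492537 was at -1.45, -1.46 and -2.04 on replicates 1, 2 and 3 and fell by 1.65 on the log2 scale. Its other kept probe was at 0.04. Of the 5 reverse probes of chr4:124127144-124334840, 2 had a treated reading and were called lower, at -1.60 and -1.52. The other 3 had none, and their mean folds are given further on. A shorter region within it, chr4:124206166-124334412, had 3 kept reverse probes, 2 of which were called higher, up to 0.91. In the 3 forward probes of chr14:106562325-106660675, 1 of them without a treated reading, the change was -1.55, -1.64 and -0.88 in the mean of replicates 1, 2 and 3, so replicate 3 stood apart. The brightest probes of these last 2 regions, at -1.60 each, were well above background on all 3 arrays in untreated RNA and on 1 array in treated RNA, and their value grew to -3.46 (chr14:106562325-106660675) and -3.28 (chr4:124127144-124334840) in the scanner software's own log ratio. The reverse probe of chr13:60508775-60534625 (-1.67) and that of chr2:158169020-158191295 (-1.66) are described with the strands.

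Of the region probes called lower, 255 were well above background in no treated reading, and mean folds are given here for some of the largest. Values of such probes, here and elsewhere, rest on treated signals without that mark. The forward probe of chr8:85609155-85615170 was well above background in untreated RNA on all 3 arrays and on none in treated RNA. It was 2.59-fold lower after treatment in the mean of the 3 arrays, with mean log2 intensities of 6.40 in treated and 7.77 in untreated RNA. The fold sets the untreated mean against the higher of the probe's own signal and the lowest signal marked well above background on each array. The 2 reverse probes of chr2:84344350-84370075 without a treated reading were 2.32-fold and 2.31-fold lower in the mean. Of the 5 reverse probes of chr4:124127144-124334840, 3 had no treated reading either, and they were 2.38-fold, 2.35-fold and 1.98-fold lower in the mean. In all of these folds but that of 1.98, the probe's own treated signal was the higher, so they equal the mean change. They are not least changes: the 2.38-fold probe had a log2 change of -0.96 on replicate 3. All of these probes were kept through untreated readings alone, so their direction was in part set by the choice, and no p-value is given for them.

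**Figure D3:**
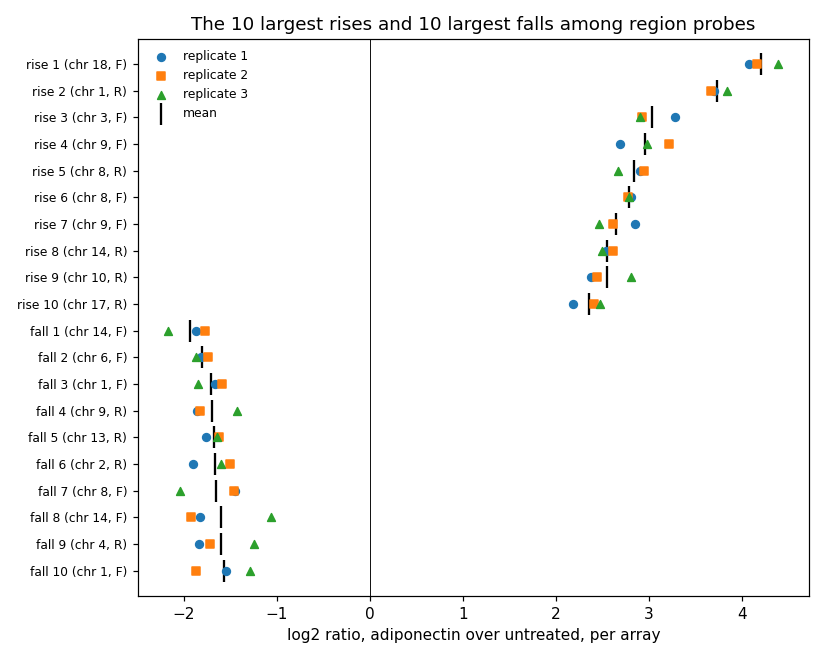
The log2 ratio of adiponectin-treated over untreated RNA on each of the 3 arrays (symbols) and their mean (bars) for the 10 largest rises and 10 largest falls, 1 probe per region and strand, with the chromosome and the strand letter. All 3 arrays lie on the same side of 0 for each of the 20 probes, and the rises reach 4.21 while the falls end at -1.93.

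Probes along a strand were next compared with each other, since a transcript that covers the whole region would move all of them. Of 1119 region strands with at least 2 kept probes, 699 (62.5%) had all probes of the same sign. That count held 342 of the 465 strands with 2 kept probes and 95 of the 203 with 5 or more. All kept probes were called higher in 109 and lower in 109, none was called in 308, and 60 held probes called in both directions. Of the 109 strands called lower throughout, 48 held a probe kept through untreated readings alone, and of the 109 called higher throughout, 9 held a probe kept through treated readings alone. The range between the highest and lowest probe had a median of 0.28 on the log2 scale, and it was 1 or more in 113. The difference between the 2 brightest probes of a strand was tested on its own, in the 3 arrays. It passed in 364 of the 1119 (32.5%), and in 29.3% of 1500 region strands of any length. The brighter probe was the higher one in 247 and the dimmer one in 117, and the difference passed at 2-fold or more in 65. Brightness includes the treated signal, so a rise itself makes a probe the brighter one, and this split was in part set by the ranking. The count of 364 was 200 without replicate 1, 397 without replicate 2, 176 without replicate 3 and 40 with median centring in place of loess.

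Blocks that moved as a whole were chosen after their values were seen, among strands with 3 or more kept probes that were all called the same way. The 10 forward probes of chr4:129497990-129515290, all that were designed, were called higher, from 0.79 to 1.19. Their mean was 0.83, 0.82 and 1.45 on replicates 1, 2 and 3, so replicate 3 was the highest. An overlapping region, chr4:129488462-129516410, had 2 kept forward probes, both called lower, at -0.45 and -0.34. The 5 reverse probes of chr15:68161768-68193518 lay close together, from 1.84 to 1.96, though their mean ranged over the arrays from 1.51 to 2.29. The 4 forward probes of chr3:40439525-40509975 lay between 2.08 and 2.29, and the 5 forward probes of chr8:27912000-27992750 between 1.49 and 1.72. Within these strands the probes differed by less than the arrays did, or by about as much.

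The regions with the most kept probes were described next. In chr8:72663625-72673010, all 8 forward probes were called lower, from -1.43 to -0.36, 1 of them without a treated reading, and the 8 reverse probes ranged from -0.49 to 0.44, with 4 called lower and 1 higher. In chr11:95627874-95640824, 6 of 9 forward and 7 of 7 reverse probes were called lower, with medians of -0.37 and -0.30. In chr14:65431652-65437902, 4 of 6 forward probes were called lower and 1 higher, and 6 of 10 reverse probes were called lower. In chr8:119732348-119749198, 5 of 10 forward probes were called lower and 1 of 6 reverse probes higher. The region with the most probes, chr11:3538125-3554450, had 2 of 9 forward probes called higher and 2 lower, and none of 8 reverse probes called, while an overlapping region had 3 reverse probes called lower, from -0.74 to -0.57. In chr11:97505439-97522274, 1 of 7 forward probes passed, at 1.25, and on the reverse strand 1 of 8 was called higher and 2 lower. Of the reverse probes called lower, 1 each in chr8:72663625-72673010, chr11:95627874-95640824, chr14:65431652-65437902 and chr11:97505439-97522274 was kept through untreated readings alone.

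**Figure D4:**
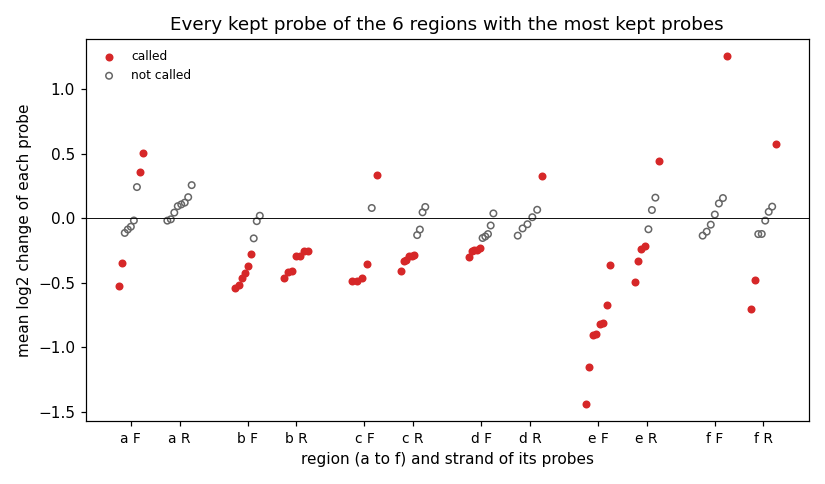
Mean log2 change of every kept probe (points) in the 6 regions with the most kept probes, by strand. Regions a to f are, in order, chr11:3538125-3554450, chr11:95627874-95640824, chr14:65431652-65437902, chr8:119732348-119749198, chr8:72663625-72673010 and chr11:97505439-97522274. All 8 forward probes of region e lie below 0, and 1 forward probe of region f stands at 1.25 away from the rest.

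The strands of a region were then set against each other. Of 1041 regions with probes designed to both strands, 565 had kept probes on both, 182 on F alone, 173 on R alone and 121 on neither. On F, 36.5% of the designed probes were kept, and on R 39.9%. F probes were called higher in 28.6% and lower in 17.9% of 2186, and R probes in 24.3% and 23.4% of 2338. The F minus R difference of each array, taken from the mean of the kept probes of each strand, was tested against 0 and cancels a shift common to both strands. It passed in 298 of the 565 regions (52.7%; limma with Benjamini-Hochberg adjustment over all 578 regions with both strands measured, of which 52.9% passed). F was the higher in 168 and R in 130, and the difference passed at 2-fold or more in 38 (6.73%). The strand means had the same sign in 372 regions (65.8%), where the shares of positive means alone (67.4% of F and 64.1% of R) would give 54.9%, and across the 565 regions they correlated at r = 0.172, with both strands on the same arrays. With median centring in place of loess, 27 regions passed.

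Regions with opposite calls were few. The brightest F probe was called higher and the brightest R probe lower in 26 regions, and the reverse held in 14. In 6 of these 40 regions the lower probe was kept through untreated readings alone. The brightest probes of both strands were called higher in 100 and lower in 15, 1 strand alone was called in 271 and neither in 139. In 4 of the 15, 1 or both of the lower probes were kept through untreated readings alone. The largest strand difference was in chr10:69669025-69686275, where the 1 kept R probe was at 2.38, 2.44 and 2.81 and the mean of the 5 F probes at -0.33, -0.25 and -0.22 on replicates 1, 2 and 3. F minus R was -2.81 ± 0.093 (limma adjusted p = 1.46e-06). All 5 F probes were kept through untreated readings alone, so their values below 0 were in part set by the choice. In chr13:60508775-60534625, the F probe rose (1.56, 1.56 and 1.49) and the brighter R probe fell (-1.76, -1.62 and -1.64), while the other R probe was at 0.17. F minus R over the strand means was 2.29 ± 0.083 (limma adjusted p = 1.95e-06). In this second region both of the called probes had readings in both groups on all arrays, and they moved in opposite directions on each.

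In the other large differences, the kept probes of 1 strand rose and those of the other were near 0. The difference was 2.80 ± 0.083 in chr8:80581177-80621652 and 2.63 ± 0.088 in chr9:56910620-56919495, with R at -0.01 and 0.01. In chr3:40439525-40509975 the 4 F probes were at 2.00, 2.32 and 2.18 in the mean on the 3 arrays and the 2 R probes at 0.05, 0.07 and 0.10. The difference was 1.73 ± 0.10 in chr14:44284425-44300475, with R at -0.16. In chr8:80581177-80621652, chr9:56910620-56919495 and chr14:44284425-44300475 each strand had 1 kept probe, so these are differences between single probes. The R probes of the chr8 and chr14 regions were well above background in 1 treated reading each. When dim probes were not filtered and so entered the strand means, the difference shrank to -0.80 in chr10:69669025-69686275, 1.45 in chr8:80581177-80621652, 0.48 in chr9:56910620-56919495 and 0.60 in chr13:60508775-60534625, and each still passed. Further regions had strand means of opposite sign. In chr2:158169020-158191295, 1 F probe rose by 1.13, and the other was at 0.19 and not called. Its 6 kept R probes ran from -1.68 to 0.30. Of these, 4 were called lower, 1 of them kept through untreated readings alone. In chr6:129151512-129208737 the strand means were 0.63 (F) and -0.93 (R). The F mean of that region rested on 1 probe of 3, at 1.97, and another was at -0.28.

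**Figure D5:**
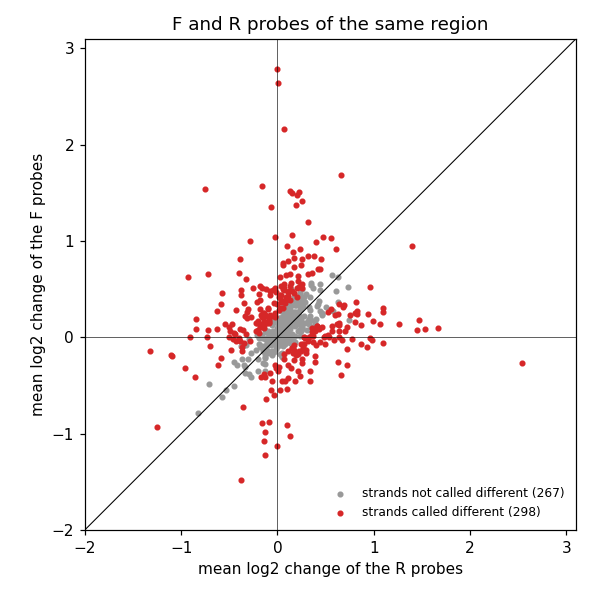
Mean log2 change of the F probes (vertical axis) against that of the R probes (horizontal axis) in the 565 regions with both strands kept, with the 298 regions whose F minus R difference passed in red and the line of equality in black. Many red points lie along the axes, where the mean of 1 strand changed and that of the other, in part from dim probes, was near 0.

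Other regions moved in the same direction on both strands. In chr1:175654606-175672031, the 5 F probes were called lower from -1.03 to -0.75 and the 5 R probes from -1.37 to -1.13. R was lower than F by 0.31 ± 0.093 (limma adjusted p = 0.0245), and 2 overlapping regions, chr1:175653557-175671940 and chr1:175660642-175671878, had all 3 of their kept R probes called lower each. In chr17:39960567-39992817, the 4 F probes were called higher, with strand means of 1.69 (F) and 0.66 (R), and F exceeded R by 1.03 ± 0.079. In chr13:76326228-76332632 the strand means were -0.79 (F) and -0.82 (R), with a difference of 0.03 ± 0.074 that did not pass, and 1 kept probe on each strand had no treated reading.

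Neighbouring regions had changes of the same sign most often where they overlapped. Along each strand, 221 pairs of successive kept regions overlapped, and 156 of them (70.6%) had mean changes of the same sign, with r = 0.404 across pairs. Overlapping regions can share the transcript that they measure. Of 81 pairs with a gap of at most 20 kb, 59.3% had the same sign (r = 0.116), and of 137 pairs with a gap of 20 to 100 kb 54.0% (r = 0.292). Pairs over 500 kb apart had the same sign in 57.6% of 1220 (r = 0.0653). Of 61 runs of 3 or more regions with 5 or more probes and gaps of at most 100 kb, 4 had at least 75% of their probes called lower and 2 had at least 75% called higher. The runs named here were picked for their agreement. The one on chromosome 1, from 175653557 to 175717250 on the R strand, held 4 regions and 16 kept probes, with 14 called lower and 0 higher. In it, 3 regions overlap one another. Runs of 3 and 4 regions on chromosome 17, R strand, from 22013350 to 22099431 and from 22332475 to 22466521, had 6 of 7 and 9 of 11 probes called lower. In the latter run every other region overlaps chr17:22335458-22466521, and 1 of the 9 lower probes was kept through untreated readings alone. The run with the highest share called higher, on chromosome 4, F strand, from 129376440 to 129516410, had 10 of 13 higher and 2 lower, and all 10 belong to chr4:129497990-129515290.

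Noncoding RNA genes with a symbol of their own, which are other features of the array, also moved both ways. Of 23 measured, 8 were called higher and 8 lower, with a median of 0.11. Over all probes tested, 25.9% were called higher and 35.9% lower, so the share called lower was near that of the array. The share called higher was above it, a difference among few genes that was not tested. Malat1, an abundant nuclear RNA, was at 1.15, 1.27 and 1.87 on replicates 1, 2 and 3, and Rmrp, the RNA of a nuclear and mitochondrial ribonuclease, rose by 1.38 ± 0.097. Neat1, the scaffold of nuclear paraspeckles, was at -1.46, -1.88 and -0.31, with replicate 3 apart from the others, and was called lower. Snhg7, a small nucleolar RNA host gene, fell by 1.11 on the log2 scale, and Mir17hg, the host of a microRNA cluster, by 0.96. Norad was counted as lower by 1 probe, at -0.51, but its 4 probes ranged from -0.51 to 1.01.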

How the data were processed

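Per the submitters' processing notes and the file headers, spots were read out by Agilent Feature Extraction 10.7.3.1 on a design placed on mm9. The deposited intensity columns hold the median brightness of each spot and its local background, and the deposited 0 or 1 marks give background, saturation and outlier state. The deposited log10 ratio is that of Cy5 over Cy3 after the software's own background subtraction and dye normalization. The authors' log2 table has no stated method. It correlated at r = 0.994, 0.990 and 0.992 with loess ratios turned to treated over untreated, so its direction was taken as that, and how it treated background is not stated.

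Median signals were corrected with normexp (offset 50), normalized within arrays by loess with controls at weight 0 (limma 3.58.1, R 4.3.3) and turned by the labels' dyes. Loess removes from each array the trend of the ratio with brightness, and with it part of any change common to most probes of a brightness. Outlier spots (323, 303 and 299) were left out, and no spot was saturated. The 3 ratios were tested against 0 by lmFit and eBayes over 28961 probes. Levels per sample were taken after Aquantile scaling between arrays. The dyes are not balanced over the arrays (2 in one orientation, 1 in the other), so these levels can carry dye bias. P-values measure the spread of 3 arrays, whose number limits the precision.

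Named were the 10 largest rises and 10 largest falls with a call and the same sign on all arrays (the brightest probe of a region and strand), the 6 largest called strand differences and the 6 regions with the most kept probes. Members and lists were chosen with earlier results of these data known. The comparison of neighbouring regions was chosen after the files were seen. Genes near the regions, planned with lists of inflammatory and macrophage genes, were not analysed here. The tests were tried on simulated data with known changes.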

Additional observations from a re-analysis of the deposited data

How the results depend on the processing

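Under the alternatives run on them, the 10 rises, 10 falls and 6 strand differences named above kept their direction, and they kept their call except with median centring in place of loess, where 22 of 26 lost it (the rises were then 1.18 to 3.05 and the falls -3.11 to -2.22), and except that 5 could not be tested with 6 of 6 readings. With that centring limma called 0 region probes higher and 0 lower (726 at an unadjusted p under 0.05), 27 strand differences and 40 probe differences, and the median of the region probes was -0.23. The median, 0.05 as reported, was 0.14 with a normexp offset of 0, 0.21 in the scanner software's log ratio, 0.080 in the deposited log2 values, 0.10 after centring on the tested probes, 0.13 for probes with 6 of 6 readings and 0.0096 with no filter. With 6 of 6 readings 529 probes were lower and 239 probe differences passed. The scanner software's log ratio gave 174 probe differences. A required log2 change of 1 left 83 higher and 35 lower. Leaving out each replicate gave 910 to 1185 higher, 685 to 892 lower, 200 to 315 strand differences and 176 to 397 probe differences. The strand difference of chr10:69669025-69686275 ranged from -4.73 to -0.80 over the settings, and that of chr9:56910620-56919495 from 0.48 to 3.94. The nearest gene on mm9 was not run. The ratio of each array is already the difference within a pair. Signal over background limits the dim probes, whose ratios the offset draws towards 0.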
